A study of Homo sapiens with 20 samples.

Results

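The loss of transcripts after RNA synthesis was stopped was followed in U2OS cells depleted of UPF1, using the 4 arrays labelled shRent1 of 20 arrays in all. U2OS is an established human osteosarcoma line, grown here in DMEM with 10% FCS. The UPF1-depleted cells were sampled before DRB (0 hr) and after 1.5, 3 and 4.5 hr of DRB at 100 ug/ml, with 1 array at each time. Control cells were sampled at the same times after the same DRB dose, also with 1 array each. The other 12 arrays hold cells under hypoxia (below 0.1% oxygen), tunicamycin (2.5 ug/ml) or emetine (100 ug/ml) over the same DRB course. They serve here to estimate scatter, and those of hypoxia and tunicamycin also to choose genes by their loss. Every sample carries a treatment duration of 3 hr in its label. The labels name a short hairpin against Rent1, the older name of UPF1, but give no hairpin sequence, vector, promoter or clone, and they name no control hairpin.

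Signal was the RMA intensity of a 3' expression array on the log2 scale, and a change is the log2 signal at a time minus that at 0 hr in the same cells. Losses were described for the 8999 of 14478 tested genes with a log2 signal of 7 or more at 0 hr in depleted cells, and a loss is a change of -1 or lower, which means that at most 50.0% of the signal was left. Early losers had passed -1 by 1.5 hr and stayed past it, middle losers first passed it at 3 hr, and late losers first passed it at 4.5 hr. Delayed losers, which are also middle or late, had changed by less than 0.2 downward at 1.5 hr but had passed -1 at 4.5 hr. Just inside the signal limit stood ISG20 at 7.0001 and just outside it DTNB at 6.9996, while CHIC2 at -1.0001 and TRAF4 at -0.999 stood on either side of the loss limit.

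DRB blocks the kinase CDK9 and so holds RNA polymerase II near the start of genes, after which the level of an mRNA falls at the pace of its decay. Transcripts of transcription factors, cytokines and feedback inhibitors carry AU-rich elements or other signals that recruit deadenylases, and they are among the shortest lived, while mRNAs of the ribosome and of energy metabolism are long lived. UPF1 is the RNA helicase at the centre of nonsense-mediated decay (NMD), which removes transcripts with a premature stop codon and also many normal ones, among them stress-response mRNAs with upstream reading frames. It also acts in other decay pathways.

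Of 27 tested genes with microRNA symbols, 11 had a log2 signal of 7 or more, and 3 of those were lost by 4.5 hr, a count too small to set against the 11.6% of all genes. They are shown by their mature sequences because the seed, bases 2 to 8, names the target family that each locus serves. Sequences are from RefSeq on GRCh38.p14, written 5' to 3' with the seed in capitals. The microRNAs of MIR181A2HG lie within that host gene, and the pair from it shares a seed.
hsa-miR-181a-5p: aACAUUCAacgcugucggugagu
hsa-miR-181b-5p: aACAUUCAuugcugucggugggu
hsa-let-7d-5p: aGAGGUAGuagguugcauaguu
hsa-miR-34a-5p: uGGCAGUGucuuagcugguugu
The first lies at chr9:124692480-124692502 and the next at chr9:124693725-124693747, both on the plus strand. Let-7d, of the family that represses growth-promoting genes, lies at chr9:94178841-94178862 on the plus strand, and miR-34a, which p53 induces, at chr1:9151735-9151756 on the minus strand. The array reads the longer transcripts that the annotation assigns to these genes and not the mature microRNAs.

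MIR181A2HG stood at log2 8.27, 5.31, 5.21 and 4.92 in depleted cells from 0 hr through 1.5 and 3 hr to 4.5 hr, against 7.91, 5.22, 5.46 and 4.60 in control cells. The transcript named for MIRLET7D changed by -2.14, -2.31 and -2.47 in depleted cells and by -2.40, -2.40 and -2.27 in control cells. Both were early losers in which nearly all of the loss lay before 1.5 hr. The MIR34A transcript was a middle loser, with changes of -0.55, -1.31 and -1.39 in depleted cells and of -0.89, -1.46 and -1.45 in control cells. Slopes over the 4 times passed the test for MIR181A2HG (-0.68 ± 0.23 log2 per hr, standard error, adjusted p = 0.0420) and MIR34A (-0.33 ± 0.06, adjusted p = 0.00125), and MIRLET7D missed it (-0.50 ± 0.20, adjusted p = 0.0686).

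The knockdown target was down on all 4 arrays. The brighter UPF1 probe set gave signals of 169.5, 92.4, 94.7 and 89.4 in depleted cells, against 354.5, 352.4, 392.2 and 377.0 in control cells, or 29.1% of control with a log2 difference of -1.78 ± 0.48 (SD over 4 times). The dimmer probe set read 58.1 to 85.2 in depleted cells and 103.6 to 122.1 in control cells. Median signals of the depleted arrays were 37.7 to 39.4, inside or just below the range of control, 38.9 to 40.4. Of 16 mesenchymal and osteosarcoma markers, 12 stood at log2 7 or more in every depleted array and TWIST1 lay below the filter, whereas of 18 measured markers of other cell types EPCAM alone reached 7. The 3' minus 5' probe difference of ACTB, a measure of RNA integrity and labelling, averaged 1.24 ± 0.06 in depleted arrays and 0.55 ± 0.10 in control arrays (SD, n = 4 each), and its part in any difference between these cells was not tested. The labels do not state whether the arrays came from separate cultures, and the p-values measure the scatter of single arrays about the fitted lines.

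By 4.5 hr, 1046 of the 8999 genes (11.6%) had lost at least log2 1 in depleted cells, while 1061 of 8859 (12%) had done so in control cells. At 1.5 hr the counts were 148 in depleted and 256 in control cells, and at 3 hr they were 563 and 769 in the same order. The depleted cells thus had fewer genes past the limit at the first times and about as many at the last. The median change over the 8999 genes stayed between -0.03 and 0.03 in depleted cells. The deposited signals did not share one distribution, since the upper quartile of the depleted arrays was 200.9, 187.1, 181.7 and 166.8 at the 4 times while their medians hardly moved. How much of a loss common to most transcripts the normalization removed is not known, and fewer cells cannot be told apart from less RNA per cell.

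A line fitted to the 4 depleted arrays, with scatter estimated over all 20 arrays, fell for 2389 of 14478 genes (16.5%) and rose for 1589 (11.0%) in limma at an adjusted p under 0.05. Among genes at log2 7 or more, 2071 fell (23.0%) and 833 rose (9.26%). Under 7 the balance turned, with 318 of 5479 genes falling (5.8%) and 756 rising (13.8%). In control cells 2529 genes fell (17.5%) and 2063 rose (14.2%). The rising count moves with scaling, since rises made up 39.9% of the calls as deposited, 59.9% after quantile normalization (3017 genes) and 19.3% when arrays were centred on ribosomal protein genes (673 genes). The falling count was 1214 without the 0 hr array and 995 without the 4.5 hr array. Both counts of falling genes are given for the gene lists below wherever either moves by over 1.5 times, as the count without the first array and the count without the last.

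Of the lost genes 143 were early (1.59% of 8999), 409 middle (4.54%) and 493 late (5.48%), and 158 were delayed (1.76%). Control cells had 242 early (2.73%), 499 middle (5.63%), 314 late (3.54%) and 129 delayed losers (1.46%). The slope fell in 119 early, 401 middle, 488 late and 156 delayed losers. These are 83.2% of the early, 98.0% of the middle and 99.0% of the late losers. A line is a poor summary of a loss that has ended by 1.5 hr, and the part of this in the lower early share was not tested. Median changes at 1.5, 3 and 4.5 hr were -1.37, -2.37 and -2.77 for early losers, -0.58, -1.35 and -1.96 for middle losers, and -0.28 and -0.72 at the first 2 of these times for late losers. A median of 14.6% of the signal was left at 4.5 hr in the early class, 25.7% in the middle class and 43.5% in the late class. By 4.5 hr 20 early and 7 middle losers had sunk below log2 4.7, the level of the filter, where the size of a loss may be a lower bound.

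**Figure D1:**
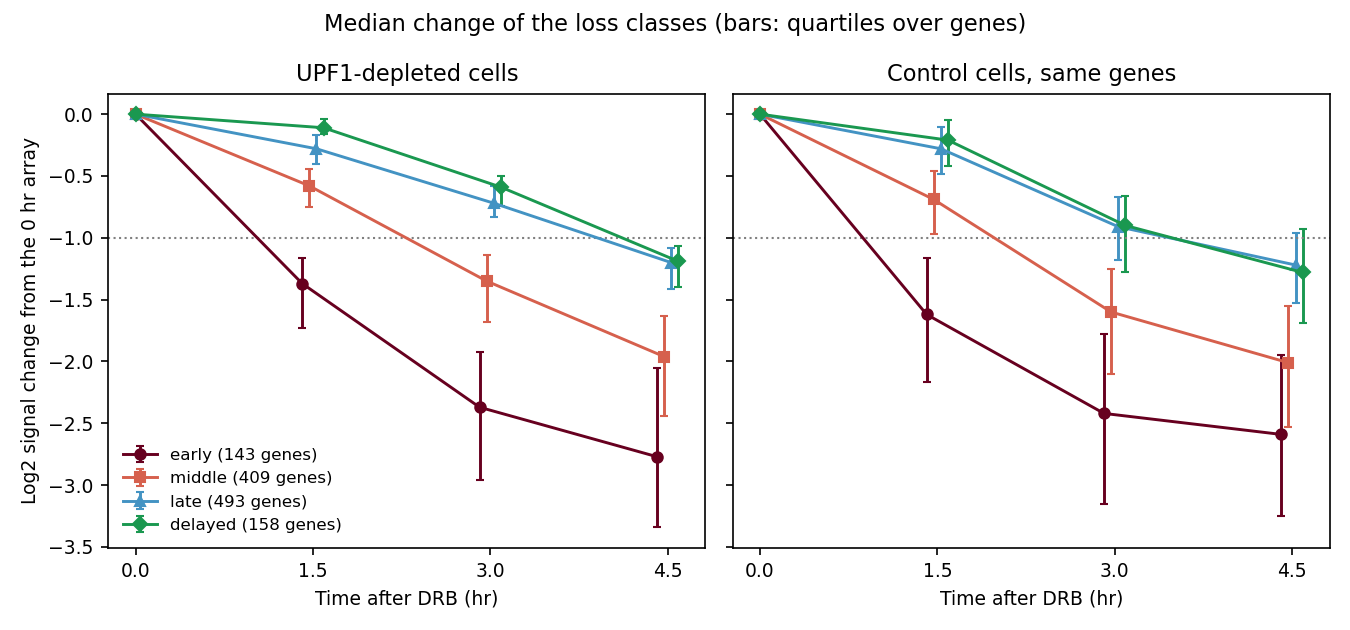
Median log2 change from 0 hr against time after DRB for early (143 genes), middle (409), late (493) and delayed (158) losers of the UPF1-depleted cells, in depleted cells on the left and for the same genes in control cells on the right, with quartiles over genes as bars and the loss limit dotted. The classes were defined on the depleted cells, where the early median reached -1.37 at 1.5 hr and the delayed median -0.11.

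The steepest slopes reported were of genes with varied roles. PLK2, a polo-like kinase induced by p53, stood at log2 10.89, 8.77, 6.39 and 5.51 in depleted cells, against 10.95, 8.62, 6.17 and 5.85 in control cells. Its slope was -1.23 ± 0.14 log2 per hr (adjusted p = 2.33e-05), and 2.41% of its signal was left at 4.5 hr. Both series descended at each step and lay within log2 0.4 of each other throughout. SGK1, the serum- and glucocorticoid-induced kinase, stood at 10.45, 8.74, 6.45 and 5.41 in depleted cells and at 9.99, 7.05, 4.61 and 4.84 in control cells. It fell by 1.16 ± 0.18 log2 per hr in depleted cells (adjusted p = 0.000248), with a higher signal than control on every array. TRMT10C, a subunit of the mitochondrial RNase P, changed by -1.23, -3.80 and -4.90, and CLK1, a kinase that phosphorylates SR splicing factors, by -1.02, -3.28 and -4.87. TIFA, an adaptor of innate signalling, KLHL9, an adaptor of a CUL3 ubiquitin ligase, the peptide hormone ADM, the G-protein regulator RGS2 and the ribosome rescue factor PELO were also among the steepest, with ZBED5, at 4.5 hr changes of -4.58, -4.32, -4.26, -4.37, -4.18 and -5.14. For ZBED5 the call rests on 1 probe set, and its slope was 0.083 when probe sets ending in _s_at or _x_at were left out.

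Some early losers had most of their loss before 1.5 hr. TAF1D, a subunit of the RNA polymerase I initiation factor SL1 whose introns hold snoRNAs, changed by -4.40, -4.14 and -4.32 in depleted cells and by -4.74, -4.57 and -4.76 in control cells. A level flat from 1.5 hr on gave a slope of -0.85 ± 0.38 that missed the test (adjusted p = 0.112). EIF3C, a scaffold subunit of translation initiation factor 3, changed by -3.07, -3.98 and -4.27 (adjusted p of the slope = 0.0528). NFKBIA, the inhibitor of NF-kB that NF-kB itself induces, changed by -2.97, -3.20 and -3.26 in depleted cells (adjusted p = 0.101) and by -3.53, -3.74 and -3.32 in control cells. MYC, the growth-promoting transcription factor, stood at 11.95, 9.56, 8.67 and 8.74 in depleted cells, against 11.96, 8.97, 8.52 and 8.56 in control cells, and its slope of -0.70 ± 0.18 passed (adjusted p = 0.0124). TAF1D and NFKBIA changed little after 1.5 hr, EIF3C and MYC lost further signal to 3 hr, and for MYC the depleted array at 1.5 hr lay above control. Curvature, the square term of time, passed for no gene in depleted cells in limma, with 754 genes (5.21%) at an unadjusted p under 0.05, against 27 called genes in control cells (0.186%). The curvature difference between the cells passed for 0 genes, with 442 (3.05%) at an unadjusted p under 0.05.

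Immediate early transcription factors, the first genes switched on by growth signals, were often lost by 3 hr. Of 36 tested, 16 fell (44.4%; 7 without the first array and 12 without the last) and 0 rose. By comparison, 16.5% of all genes and 23.0% of those at log2 7 or more fell. Of the 29 at log2 7 or more 7 were early, 9 middle, 3 late and 4 transient losers, while 6 were not lost. At 4.5 hr 65.5% of the 29 were past the limit, against 11.6% of all such genes. JUN changed by -1.72, -3.66 and -3.45 in depleted cells and by -3.32, -3.85 and -3.66 in control cells. KLF6 changed by -1.15, -2.47 and -2.77 in depleted cells, whereas in control cells the change was -2.15, -1.56 and -1.01. The control level of KLF6 recovered after 1.5 hr and the depleted level did not, on each of the 4 of its 5 probe sets with a log2 signal of 7 or more, and its slope difference missed the test (-0.48 ± 0.17, adjusted p = 0.546). CEBPB, FOSL1, ID2 and TSC22D1 were middle losers, with changes at 4.5 hr of -3.06, -2.33, -2.86 and -2.80. The list's median change at 1.5 and 4.5 hr was -0.61 and -1.40 in depleted cells and -1.62 and -1.80 in control cells.

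The feedback inhibitors and AU-rich element binding proteins, which shut off the signals that induce them, held the largest share of early losers among the lists. Of 41 tested, 24 fell (58.5%; 12 without the first array and 13 without the last) and 2 rose. Over all genes 16.5% fell, and 23.0% at log2 7 or more. At that signal 12 of the 32 were early losers (37.5%, against 1.59% of all such genes), 4 middle and 5 late. DUSP1, a phosphatase that inactivates MAP kinases, stood at 11.32, 8.74, 7.66 and 7.26 in depleted cells and at 10.92, 6.63, 6.29 and 6.62 in control cells. It fell by 0.88 ± 0.27 log2 per hr (adjusted p = 0.0280), and at 1.5 hr the depleted array was the higher by over log2 2. TRIB1, a pseudokinase that steers protein degradation, changed by -2.47, -3.91 and -3.93 in depleted cells and by -4.13, -4.47 and -4.66 in control cells. ZFP36L1 and ZFP36L2, which bind AU-rich elements and recruit deadenylases, were middle losers and fell by 0.35 ± 0.08 and 0.49 ± 0.06 log2 per hr. PIM3, a survival kinase, was late in depleted cells at -0.29, -0.90 and -1.41, against -1.45, -2.82 and -3.14 in control cells.

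Antiproliferative genes were often lost. Of 14 tested BTG, TOB and other antiproliferative genes 9 fell (64.3%, against 16.5% of all genes; 4 and 6) and 0 rose. At log2 7 or more 8 of 9 were lost by 4.5 hr (88.9%, against 11.6% of all such genes). CDKN1B, the cyclin-dependent kinase inhibitor p27, was an early loser at -2.10, -3.83 and -4.11 in depleted cells and at -2.60, -3.39 and -3.23 in control cells. BTG1, PNRC2 and TOB2 were middle losers with 4.5 hr changes of -2.63, -3.15 and -1.58. MCL1, an antiapoptotic BCL2 family member, was early at -1.37, -2.70 and -2.81, though its family did not stand out. Of 21 BCL2 family genes 4 fell (19.0%, against 16.5% of all genes and 23.0% at log2 7 or more; 1 and 2) and 3 rose. Among p53 targets 14 of 25 fell (56.0%; 7 and 6), though PLK2 was the one early loser. CDKN1A, the inhibitor p21, was late at -0.30, -0.72 and -1.19. Secreted factors were mixed, with 11 of 32 falling (34.4%; 6 and 5) and 2 rising. INHBA, a subunit of activins, was early at -1.04, -1.55 and -2.23, and the matricellular protein CCN1 was middle at -0.67, -1.80 and -2.22.

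Zinc finger genes were numerous among the losers. Of 365 tested genes whose symbols start with ZNF and a number, a set that holds a few antisense RNAs, 187 fell (51.2%) and 12 rose (3.29%), against 16.5% and 11.0% of all genes. Without the first array 69 fell and without the last 111. Of the 196 at log2 7 or more, 20 were early (10.2%, against 1.59% of all such genes), 39 middle and 31 late, and 3 were delayed. ZNF217, an oncogenic transcriptional repressor, changed by -1.46, -2.91 and -3.34, and ZNF503 by -1.75, -2.96 and -3.18. ZNF12 stood at 9.94 at 0 hr and changed by -1.37, -2.53 and -2.94. Their median slope was -0.15 log2 per hr in depleted cells and -0.14 in control cells. Among lncRNAs at log2 7 or more 12 of 222 were early (5.41%, against the same 1.59%), 6 middle and 13 late. In all 14.0% of these lncRNAs were lost, against 11.6% of all genes at that signal. Their early set included RUSC1-AS1 at -1.51, -3.40 and -3.75, while X-inactivation locus RNA FTX was middle at -0.77, -1.82 and -2.10.

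Splicing factors passed the loss limit about as often as genes in general. Of 50 tested, 21 fell (42.0%; 7 without the first array and 8 without the last) and 1 rose, while 23.0% of all genes at log2 7 or more fell. By 4.5 hr 6 of the 49 at log2 7 or more were lost (12.2%, against 11.6% of all genes), namely CLK1, CLK4, HNRNPA1, DYRK2, RBM5 and SRSF4. CLK4, a sister kinase of CLK1, was early at -1.39, -2.14 and -2.57. The SR proteins SRSF6, SRSF5, SRSF7 and SRSF3 fell with changes at 4.5 hr of -0.89, -0.87, -0.64 and -0.45. HNRNPA1 was measured by 3 probe sets, which changed by -3.60 to -4.72 at 4.5 hr, and the brightest is of the kind that may cross-hybridize with related genes.

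The middle class held genes of varied function. MPHOSPH10, a component of the U3 snoRNP that processes ribosomal RNA, stood at 10.06, 9.37, 7.63 and 5.77 in depleted cells and at 10.17, 9.32, 7.15 and 5.49 in control cells. It fell by 0.97 ± 0.08 log2 per hr (adjusted p = 3.14e-06), losing more between 3 and 4.5 hr than in the first 1.5 hr. CLP1, an RNA kinase of the mRNA 3' end machinery, changed by -0.84, -2.50 and -4.00, and the chondrogenic transcription factor SOX9 by -0.77, -2.32 and -3.58. SERTAD1, a coregulator of E2F and CDK4, changed by -0.46, -2.51 and -3.67 in depleted cells against -2.03, -3.41 and -3.72 in control cells. In this gene the changes were furthest apart at 1.5 hr and nearly equal at 4.5 hr. Ubiquitin ligases and F-box proteins had 26 of 54 genes falling (48.1%; 20 without the first array and 17 without the last) and 0 rising. By comparison, 16.5% of all genes and 23.0% of those at log2 7 or more fell. In control cells 25 of the 54 fell and 1 rose, and 41.3% of the 46 at that signal were lost. Of the 45 at log2 7 or more in depleted cells 18 were lost, against 11.6% of all such genes. These were 1 early, 9 middle and 8 late losers. The early one was FBXO5, the inhibitor EMI1 of the anaphase-promoting complex, at -1.80, -2.50 and -3.55, and RNF139 and SIAH1 were middle at -3.27 and -2.96 by 4.5 hr.

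Stress-response genes were found in all 3 classes. Of 39 genes of the integrated stress response 14 fell (35.9%; 7 without the first array and 8 without the last) and 1 rose. Over all genes 16.5% fell, and 23.0% at log2 7 or more. At that signal 2 of 37 were early, 6 middle and 4 late losers (32.4% lost, against 11.6% of all such genes). DDIT4, an inhibitor of mTORC1, was early at -1.44, -3.27 and -3.14. SLC38A2, an amino acid transporter, changed by -0.39, -1.96 and -2.97 in depleted cells and by -1.34, -2.66 and -3.61 in control cells. XBP1, the transcription factor spliced by IRE1 during endoplasmic reticulum stress, stood at 8.62, 8.06, 6.80 and 5.15 in depleted cells, against 8.78, 7.43, 5.36 and 4.91 in control cells. The cells started and ended XBP1 near each other, and the depleted arrays were the higher at 1.5 and 3 hr. DNAJB9, an endoplasmic reticulum chaperone, was middle at -0.95, -2.52 and -3.52. Most chaperones and folding enzymes did not pass, with 5 of 39 unfolded protein response genes falling (12.8%; 4 and 3) and 3 rising.

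The ribosome biogenesis, chromatin and transcription genes that were lost reached the limit mostly at 3 hr or later. Lost genes in general did so too, with 143 early, 409 middle and 493 late. In ribosome biogenesis 31 of 61 fell (50.8%; 21 without the first array and 13 without the last) and 3 rose, while 16.5% of all genes and 23.0% of those at log2 7 or more fell. It held 1 early, 5 middle and 8 late losers. IMP3, RRS1 and BRIX1, which act in maturation of the ribosomal subunits, were middle at 4.5 hr changes of -2.53, -2.49 and -2.36, while NOP2, WDR75 and POLR1B were late at -1.25, -1.24 and -1.22. Of 68 chromatin modifiers 28 fell (41.2%; 18 and 14) and 3 rose, with 2 early losers, ARID5B at -1.52, -2.97 and -3.46 and KDM2A at -1.56, -1.99 and -2.05. Mediator and TFIID had 13 of 44 falling (29.5%, not far above 23.0%; 8 and 9), 2 rising and 0 early losers among 43. Here MED7, MED17 and TAF5 were middle at -2.53, -2.52 and -2.62. LEO1 of the PAF1 elongation complex was late and delayed at -0.08, -0.68 and -1.92.

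As their class rule requires, late losers kept most of their signal until 3 hr. B3GNT2, an enzyme that builds poly-N-acetyllactosamine, stood at 9.13, 9.02, 8.23 and 7.06 in depleted cells and at 8.98, 8.38, 7.31 and 6.33 in control cells. Its loss passed -1 between 3 and 4.5 hr in depleted cells and by 3 hr in control cells. SLC25A44, a mitochondrial carrier of branched-chain amino acids, changed by -0.23, -0.93 and -2.04. MRM3, a methyltransferase of mitochondrial ribosomal RNA, the deubiquitinase USP38, RBMXL1 and BOLA1 followed, at 4.5 hr changes of -1.99, -1.97, -1.87 and -1.85. In the mitochondrial ribosome MRPL44 and MRPS31 were middle and MRPS30, MRPL36 and MRPL34 late. Of its 75 genes 22 fell (29.3%; 8 without the first array and 4 without the last) and 10 rose (0 and 1 likewise). All 75 stood at log2 7 or more, where 23.0% of all genes fell. At that signal 11.6% of all genes were lost, against 6.67% of these.

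Most cell division and replication genes were not lost, with 13.7% of 95 past the limit at 4.5 hr against 11.6% of all genes. Of 44 mitosis and spindle genes 21 fell (47.7%; 13 without the first array and 6 without the last) and 0 rose, while 23.0% of all genes at log2 7 or more fell. Of the 42 at log2 7 or more 0 were early, 3 middle and 6 late, with 4 delayed. WEE1, the kinase that restrains CDK1, was the fastest at 10.17, 9.20, 7.78 and 6.64 in depleted cells, against 9.49, 7.89, 6.06 and 5.12 in control cells. TTK and AURKA, kinases of the spindle checkpoint and the spindle pole, were middle at 4.5 hr changes of -2.21 and -1.85. ASPM, NDC80, CENPF and KIF11, which act at the spindle pole and kinetochore or move spindle microtubules, were the delayed members, with 1.5 hr changes of -0.14, -0.04, -0.08 and -0.04 and 4.5 hr changes of -1.39, -1.40, -1.21 and -1.04. The cyclins CCNA2 and CCNB1 fell more slowly, by 0.16 ± 0.03 and 0.10 ± 0.03 log2 per hr. Among 53 replication genes 17 fell (32.1%; 8 and 3) and 4 rose, with E2F3 middle and GINS3, E2F2 and POLD3 late. The E2F2 slope was -0.26 and turned to 0.088 with the median of its probe sets.

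**Figure D2:**
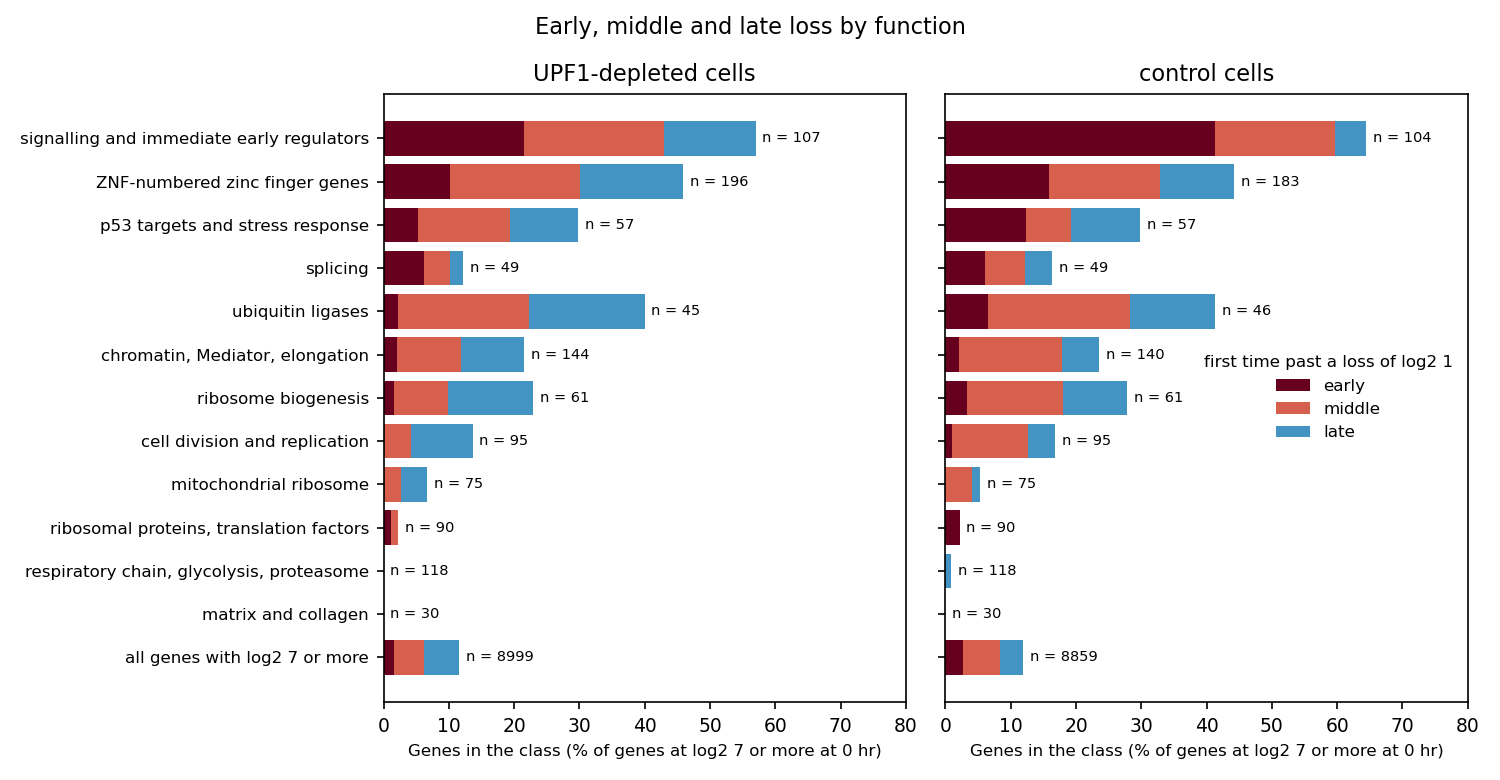
Percent of genes at log2 7 or more at 0 hr that were early, middle or late losers, by function, in UPF1-depleted cells on the left and control cells on the right, with the number of genes beside each bar. Signalling and immediate early regulators had 21.5% early losers in depleted cells and 41.3% in control cells, and respiratory chain, glycolysis and proteasome genes had 0 losers among 118 in depleted cells.

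By their definition, delayed losers kept most of their signal for 1.5 hr and lost it afterwards. The median of the 158 genes was -0.11, -0.59 and -1.19 in depleted cells and -0.21, -0.90 and -1.28 in control cells. These genes were chosen on the depleted arrays, and the choice itself favours a smaller depleted change at 1.5 hr. Control cells had 129 delayed losers by the same rule. Of the 158, 65 were middle, 38 late and 44 no losers in control cells. The 35 that also met the delayed rule there are counted among the middle and late. DUSP5, a nuclear ERK phosphatase, stood at 8.90, 8.90, 7.70 and 6.24 in depleted cells and at 8.32, 7.56, 6.10 and 5.33 in control cells. It was level for the first interval in depleted cells, though its slope over all times, -0.61 ± 0.09 (adjusted p = 0.000170), lay close to the control slope of -0.69 ± 0.09. SKIL, a repressor of SMAD signalling, changed by -0.18, -1.61 and -2.60 in depleted cells and by -0.82, -2.34 and -2.48 in control cells, and its slope turned to 0.120 with the median of its probe sets. NRIP1, a nuclear receptor corepressor, changed by -0.05, -1.19 and -2.48, and TOB1, an antiproliferative adaptor of the deadenylase, by -0.01, -1.19 and -2.41. FZD2, a Wnt receptor, SCAF8, which binds the polymerase II tail, and the uncharacterized RNA LOC145474 were the other large delayed losers, at 4.5 hr changes of -2.28, -2.02 and -2.59.

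CCN2 and ANKRD1, targets of the coactivator YAP, were delayed in depleted cells and early in control cells. They were the 2 delayed losers among 19 YAP targets, while 1.76% of all genes at log2 7 or more were delayed. CCN2, a matricellular growth factor, stood at 13.07, 13.41, 12.67 and 11.67 in depleted cells, against 12.32, 11.27, 10.51 and 9.31 in control cells. ANKRD1, a muscle ankyrin repeat protein, stood at 13.11, 13.12, 12.63 and 11.65 in depleted cells and at 12.33, 11.07, 10.13 and 9.54 in control cells. Both were higher in depleted cells at each time. Their slopes in depleted cells were -0.33 ± 0.08 and -0.32 ± 0.09, and the slope differences from control, 0.32 ± 0.09 and 0.30 ± 0.12, missed the test (adjusted p = 0.396 and 0.674). Of 19 YAP targets 10 fell (52.6%; 6 without the first array and 3 without the last) and 1 rose, while 23.0% of all genes at log2 7 or more fell. In control cells 11 of the 19 fell and 2 rose, and the slope difference passed for 0 of them. ID4, an inhibitor of bHLH transcription factors, was delayed too, at 0.24, -0.79 and -1.97 in depleted cells and -0.48, -1.78 and -2.45 in control cells.

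**Figure D3:**
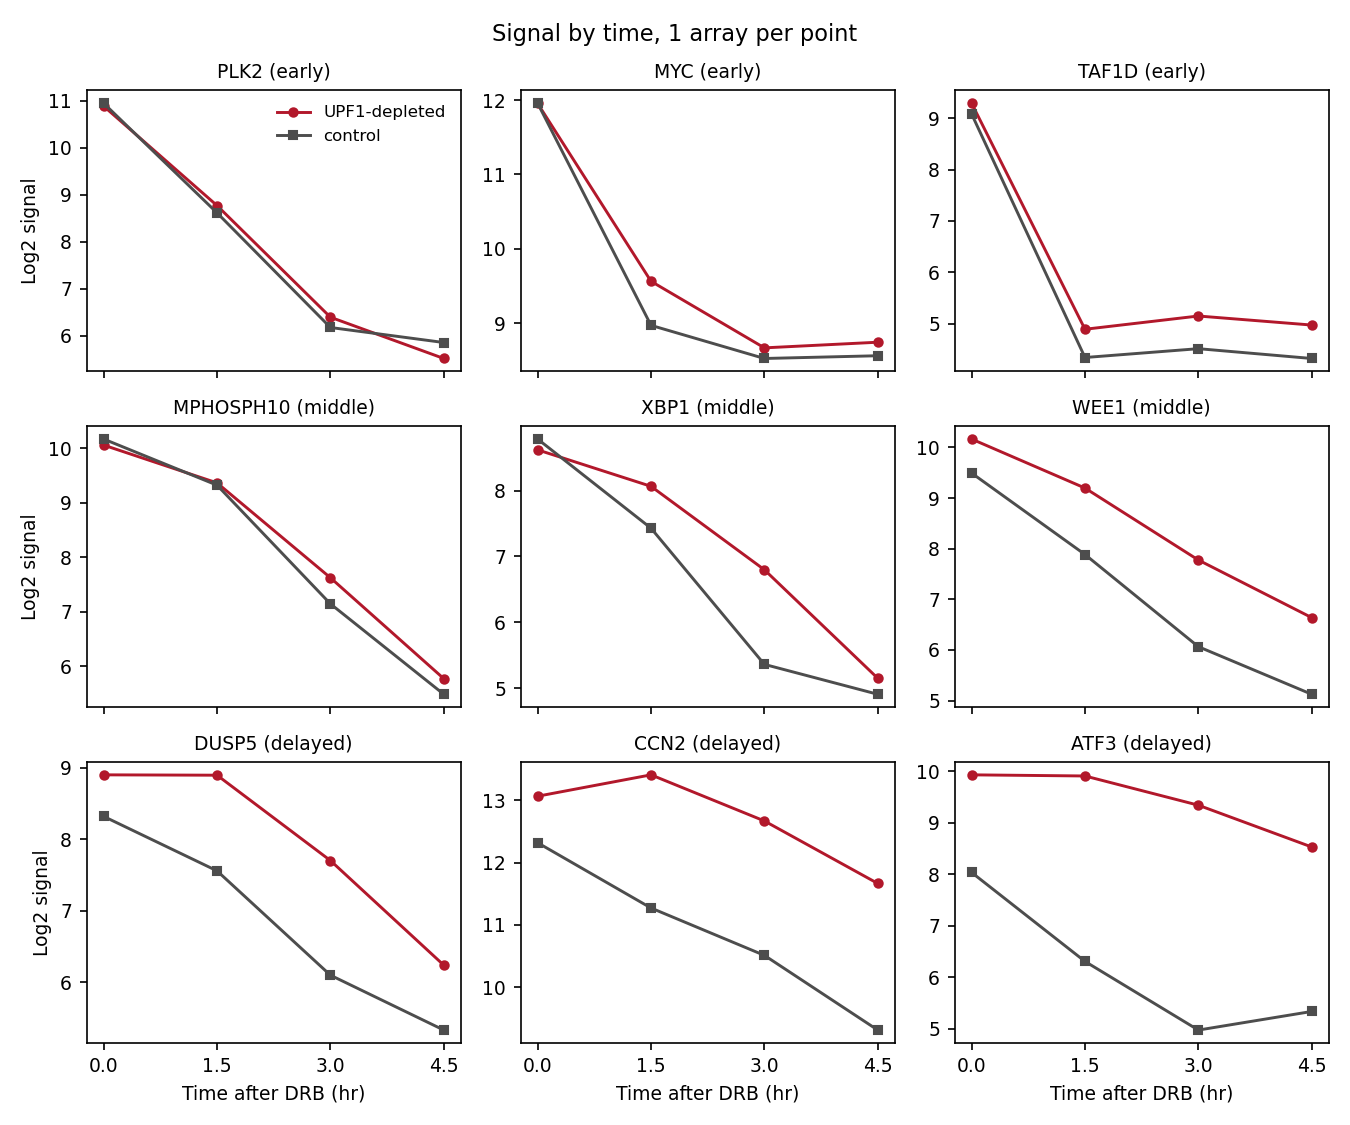
Log2 signal against time after DRB for 3 early, 3 middle and 3 delayed losers, with UPF1-depleted cells as red circles and control cells as grey squares, 1 array per point and no error available. PLK2 ran together in both cells, XBP1 separated at 1.5 and 3 hr, and DUSP5, CCN2 and ATF3 lay higher in depleted cells at each time.

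Most transcripts reported as NMD targets stood above control in depleted cells, and a part of them was still lost. Of 29 tested, the depleted level was the higher for 27 at 0 hr, 26 at 1.5 hr, 28 at 3 hr and 27 at 4.5 hr, and for 23 at all 4 times. A higher depleted level was common, at 63.1%, 56.7%, 65.4% and 55.9% of the 8999 genes at these times. Slopes of the 29 targets fell in 16 (55.2%; 5 without the first array and 4 without the last) and rose in 1. Over all genes 16.5% fell, and 23.0% at log2 7 or more, where all 29 stood. In control cells slopes of the targets fell in 16 too and rose in 0. Their median slope difference was 0.003 log2 per hr, and the difference passed for 0 of the 29. Of the 29, 2 were early, 3 middle and 4 late losers (31.0% lost, against 11.6% of all genes at that signal). ATF3, a stress-induced transcription factor, stood at 9.93, 9.90, 9.34 and 8.53 in depleted cells and at 8.03, 6.31, 4.97 and 5.34 in control cells. Its change was -0.02, -0.59 and -1.40 in depleted cells and -1.73, -3.06 and -2.70 in control cells, so that it was late and delayed in the first and early in the second. Neither its slope in depleted cells (-0.32 ± 0.13, adjusted p = 0.0733) nor its slope difference (0.31 ± 0.16, adjusted p = 0.822) passed. A dimmer ATF3 probe set stood at 7.41, 7.29, 6.96 and 6.69 in depleted cells and at 6.41, 6.46, 6.09 and 6.56 in control cells, a smaller loss in the first and almost none in the second. GADD45B, a stress sensor that binds MAP3K4, stood at 11.04, 10.00, 8.69 and 7.70 in depleted cells, against 9.66, 6.68, 6.38 and 6.69 in control cells. It fell by 0.76 ± 0.20 log2 per hr (adjusted p = 0.0139), and its loss came in similar steps where control had lost its signal by 1.5 hr. Of its 4 probe sets 3 gave losses of -2.71 to -3.48 by 4.5 hr, and the dim one, below log2 7, changed by -0.20. GADD45A changed by -0.56, -1.10 and -1.42 in depleted cells and by -1.93, -2.09 and -1.89 in control cells, and MAP3K14, the NF-kB-inducing kinase, by -0.44, -0.90 and -1.25 in depleted cells and by -1.47, -1.91 and -2.60 in control cells.

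Other members of this set lost more in depleted cells or changed little. DDIT3, the proapoptotic factor CHOP, changed by -0.40, -1.09 and -1.62 in depleted cells and by -0.45, -0.51 and -0.61 in control cells, and CHAC1, a glutathione-degrading enzyme, by -1.18, -2.05 and -1.78 in depleted cells and -0.79, -0.86 and -0.63 in control cells. DDIT3 ended at 6.78 in depleted and 6.71 in control cells, having started higher in the depleted. ATF4, the central factor of the integrated stress response, changed by -0.17 at 4.5 hr and its slope missed the test (adjusted p = 0.299). NAT9 changed by -0.40 at 4.5 hr and fell by 0.10 ± 0.03 log2 per hr (adjusted p = 0.0267). Of 17 NMD and exon junction factors, UPF1 among them, 5 fell (29.4%; 3 without the first array and 4 without the last) and 2 rose. The falling share was 16.5% over all genes and 23.0% over genes at log2 7 or more, where 16 of the 17 factors stood. SMG8, a regulator of the SMG1 kinase, was an early loser at -1.10, -2.94 and -4.10. UPF1 had a called slope of -0.18 ± 0.05 (adjusted p = 0.0136) that rests on the 0 hr array, since it was -0.02 without it (adjusted p = 0.897).

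A small transient group passed the limit at 1.5 or 3 hr and was above it again at 4.5 hr. It held 12 genes (0.133%) in depleted cells, and 33 genes (0.373%) formed the same group in control cells. The pseudogene SEC14L1P1 alone (0.0111%) was past the limit at 1.5 and 4.5 hr but not at 3 hr in depleted cells, against 6 genes (0.0677%) in control cells. KLF10, a TGF-beta-induced transcription factor, stood at 10.81, 10.24, 9.27 and 9.99 in depleted cells, against 10.26, 8.12, 8.59 and 9.28 in control cells. Its lowest depleted value came at 3 hr and its lowest control value at 1.5 hr. BHLHE40, a clock-linked repressor, changed by -1.05, -1.08 and -0.43 in depleted cells and by -2.07, -0.90 and -0.57 in control cells. The repressor HES1 changed by -0.78 and -0.89 at 1.5 and 4.5 hr and EGR1, an immediate early zinc finger factor, by -0.30, -1.01 and -0.90, while in control cells HES1 changed by -2.54 and -2.48 at those times and EGR1 by -2.31, -2.39 and -2.08. None of these 4 slopes passed in depleted cells, at adjusted p of 0.342 to 0.714.

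Several groups were hardly lost. Of 67 tested respiratory chain genes 31 rose (46.3%) and 1, SDHA, fell, against 11.0% and 16.5% of all genes. At log2 7 or more 9.26% of all genes rose and 23.0% fell. None of the 66 respiratory chain genes at that signal was lost, against 11.6% of all such genes. The 31 rises became 1 without the 0 hr array, 3 without the 4.5 hr array and 13 when the depleted arrays were fitted alone. NDUFA5 and UQCR11 rose by 0.21 ± 0.06 and 0.11 ± 0.02 log2 per hr relative to the typical transcript. Cytosolic ribosomal proteins had 0 falling and 2 rising of 52 (0 rising without the first array or without the last), at a median slope of 0.02, and glycolysis 0 falling and 1 rising of 21. In the proteasome 4 of 31 fell (2 without the first array and 0 without the last), PSMD12 among them, and collagen and matrix genes had 0 falling and 4 rising of 36 (0 rising without either array). These rises shrank or grew with the scaling described for the whole table, and a rise in RMA signal does not show synthesis.

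A few transcripts gained signal. Of genes at log2 7 or more, 5 gained at least log2 1 at 4.5 hr in depleted cells (0.0556%), namely TPMT, DIS3L2, UBBP1, CDKN2AIPNL and STK39, against 17 in control cells (0.192%). At lower signals RASSF10, a Ras-association family protein, stood at 3.73, 3.62, 6.62 and 7.95 in depleted cells and at 3.68, 3.74, 7.09 and 7.47 in control cells. It rose by 1.05 ± 0.20 log2 per hr (adjusted p = 0.00175), and all of the rise came after 1.5 hr in both cells. LINC00942, LINC00926 and the Wnt antagonist FRZB also rose, at 4.5 hr changes of 2.61, 1.99 and 1.72 in depleted cells. RPPH1, the RNA of RNase P that RNA polymerase III makes, changed by 0.50, 0.88 and 1.37 in depleted cells and by 0.66, 1.69 and 1.85 in control cells.

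Class by class, control cells placed the same genes earlier more often than later. Of the 143 early losers of depleted cells 114 were early in control cells too, 10 were middle and 4 were no losers. Of the 409 middle losers 96 were early in control cells, 251 middle and 22 late. Of the 493 late losers 9 were early in control cells, 178 middle, 153 late and 122 no losers. Since the classes were defined on the depleted arrays, these counts describe the arrays and carry no test. Losers started somewhat higher in depleted cells, with a median 0 hr difference from control of log2 0.17, 0.12 and 0.13 for early, middle and late genes, and 0.08 for the 7941 genes that were not lost. Losers were chosen by their change from the depleted 0 hr array, and that choice itself favours a high level on it.

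Genes chosen on arrays of neither kind of cells gave the same order. The 753 genes that lost log2 1 on the hypoxia arrays had median changes of -0.46, -1.11 and -1.71 in depleted cells and of -0.60, -1.46 and -1.81 in control cells. At 3 hr 432 of them had passed -1 in depleted cells and 610 in control cells, and at 4.5 hr the counts were 644 and 691. In the last interval, from 3 to 4.5 hr, the median step was -0.55 in depleted cells and -0.34 in control cells. The 636 genes chosen on the tunicamycin arrays had changes of -0.53, -1.17 and -1.65 in depleted cells and of -0.71, -1.40 and -1.75 in control cells. Their last median step was -0.44 in depleted cells and -0.34 in control cells. From 1.5 to 3 hr their median step was -0.62 in both, while the 753 genes had -0.62 in depleted cells and -0.83 in control cells. Losses were the smaller in depleted cells for 512, 620 and 451 of the 753 genes at 1.5, 3 and 4.5 hr, and for 468, 438 and 355 of the 636. Each value compares single arrays and shares the 0 hr array of its cells, so it has no replicate check, and this choice of genes was made after the data were seen.

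**Figure D4:**
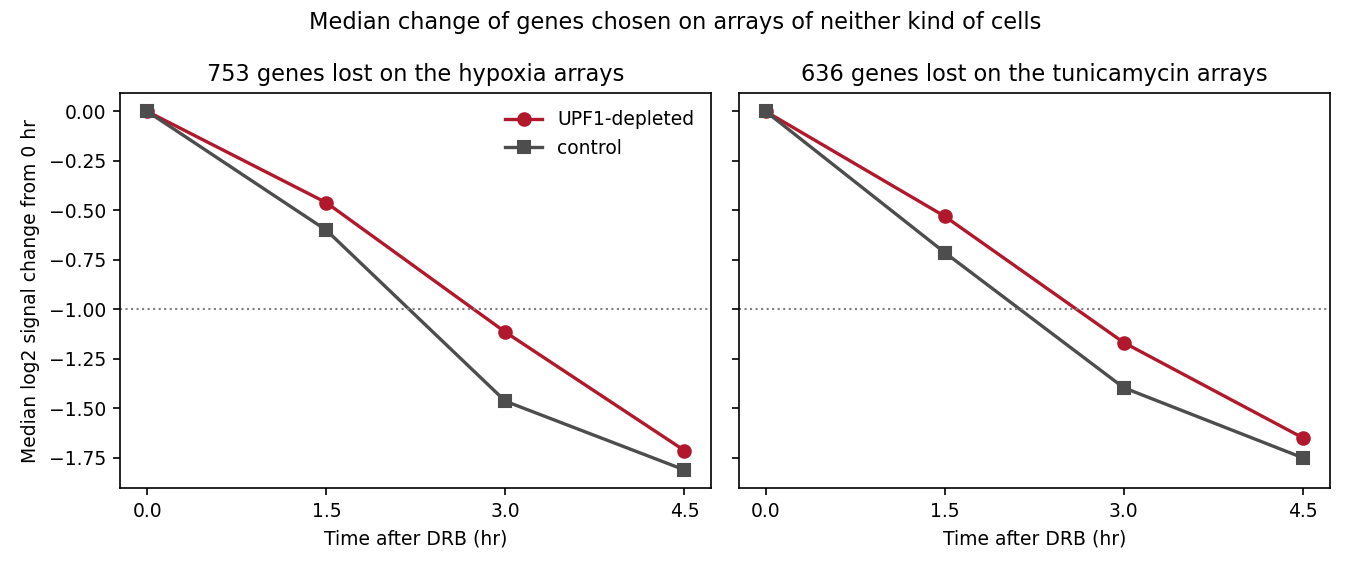
Median log2 change from 0 hr against time after DRB of the 753 genes lost on the hypoxia arrays (left) and the 636 lost on the tunicamycin arrays (right), in UPF1-depleted cells (red circles) and control cells (grey squares). The depleted medians lie above control at each time after 0 hr, furthest apart at 3 hr, by -1.11 against -1.46 and -1.17 against -1.40.

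Gene by gene, slopes in depleted cells rarely differed from control beyond the scatter of the arrays. The slope difference passed for 5 genes that fell less in depleted cells (0.0345% of 14478) and for 1 that fell more (0.00691%), in limma with time as a factor. At an unadjusted p under 0.05 there were 955 (6.6%). RSRC2, a protein with an arginine- and serine-rich coiled coil, stood at 11.59, 10.95, 10.40 and 9.87 in depleted cells, against 11.03, 9.83, 8.44 and 7.74 in control cells. Its slope difference was 0.37 ± 0.05 log2 per hr (adjusted p = 0.0185), and its dimmer probe set stood at 8.96 at 4.5 hr in depleted cells and at 7.30 in control cells. Both probe sets were higher in depleted cells at each time, with a wider gap at 4.5 hr than at 0 hr.

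The zinc finger genes ZNF75A and ZNF232 had slope differences of 0.30 ± 0.04 and 0.27 ± 0.03 (adjusted p = 0.0306 and 0.0196), and both fell in depleted cells, more slowly than in control cells. SLC19A2, a thiamine transporter, stood at 9.76, 9.68, 9.65 and 9.50 in depleted cells and at 9.21, 8.93, 8.49 and 7.77 in control cells. ORC6, a subunit of the origin recognition complex, stood at 11.41, 11.28, 11.15 and 11.13 in depleted cells and at 10.82, 10.04, 9.63 and 9.37 in control cells. Their slopes in depleted cells missed the test (adjusted p = 0.231 and 0.187), whereas the differences of 0.26 ± 0.04 and 0.25 ± 0.04 passed (adjusted p = 0.0232 and 0.0243). The ORC6 probe set ends in _x_at, a kind that may cross-hybridize with related genes, and the RSRC2 probe sets end in _s_at. EFNA2, a membrane ligand of Eph receptors, stood at 6.58, 5.85, 5.50 and 4.62 in depleted cells and at 7.90, 7.86, 8.08 and 8.11 in control cells, a difference of -0.47 ± 0.05 (adjusted p = 0.0169). It lay below the log2 7 limit at 0 hr in depleted cells and is no member of the loss classes.

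**Figure D5:**
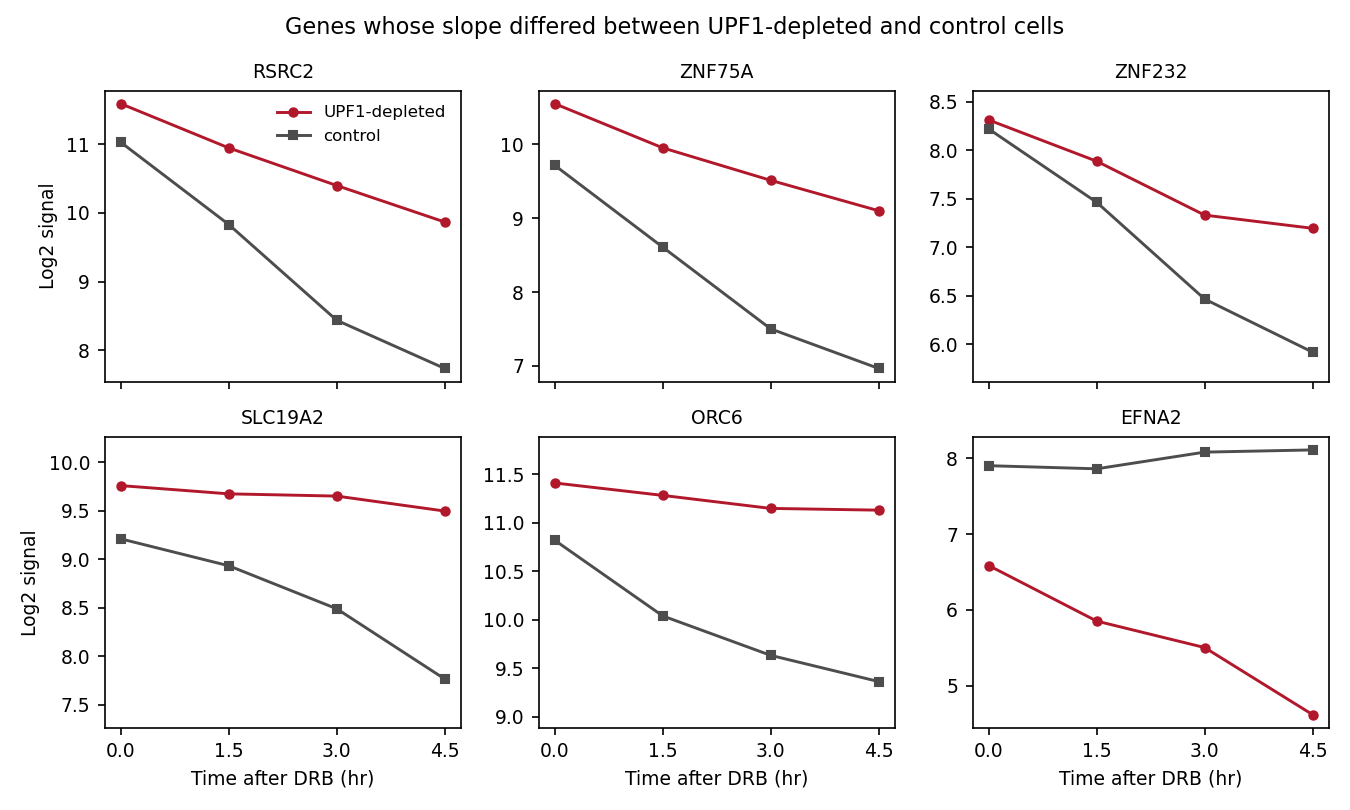
Log2 signal against time after DRB for the 6 genes whose slope differed in limma, with UPF1-depleted cells as red circles and control cells as grey squares, 1 array per point. RSRC2, ZNF75A, ZNF232, SLC19A2 and ORC6 fell less in depleted cells, and EFNA2 fell in depleted cells, from a lower level, while its control change at 4.5 hr was 0.21.

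These calls need both ends of the series, since none of the 6 passed when the 0 hr or the 4.5 hr array of either kind of cells was left out, nor when the depleted and control arrays were fitted alone. With a line per condition and no time factor, as used for the slopes themselves, EFNA2 passed and the 5 higher differences did not. Just past the threshold stood TNFRSF12A, the TWEAK receptor, at 0.29 ± 0.04 and EBAG9 at -0.31 ± 0.05 (adjusted p = 0.0501 each). The difference of ACTB 3' and 5' signals given above lies between the same groups of arrays, and its part in these slopes was not tested.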

How the data were processed

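RNA of U2OS cells was measured on 20 Affymetrix 3' arrays of 54675 probe sets, in 5 conditions at 4 times with 1 array each. The authors deposited RMA signal intensities on a linear scale, as named in the submitters' processing notes with no version given in the sources used here. These intensities were turned to log2. A single gene symbol was given for 41097 probe sets, several for 1801 and none for 11777, and the last 2 sets were left unnamed. Each of 19775 genes was represented by its probe set of highest mean, and 14478 genes with a mean above the 40th percentile (log2 4.7) were tested.

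limma 3.58.1 in R 4.3.3 fitted all 20 arrays: a line per condition for slopes (10 residual degrees of freedom), a time factor with a condition-specific line for the slope difference (8), and a square term for curvature (5). The Benjamini-Hochberg adjustment covered all 14478 genes, at a threshold of 0.05. Loss classes are measured changes between single arrays, with no replicate and no test. The number of arrays limits the precision.

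The genes named by rule were the 10 lowest slopes, 8 per class and 3 per gene list, and others were named after their values were seen. The members, gene lists and rules were chosen with earlier results of these data known. A single further gene that the rule names is not reported here. Each fit was tried on simulated arrays in which 200 of 14478 genes changed. A change of 0.4 log2 per hr was recovered in 194 for the slope and 186 for the slope difference, with 9 and 17 false calls. One of 0.2 was recovered in 134 for the slope and 78 for the slope difference, with 7 and 8 false calls. Scatter was simulated for each gene by itself, so shifts shared by the genes of an array were not represented. Alternatives changed the scaling, filter, probe set, eBayes settings, arrays fitted, time term and class limits. Python 3.11.15 with pandas 2.3.3, numpy 2.4.6 and matplotlib 3.10.9 was used for the rest.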

Additional observations from a re-analysis of the deposited data

Results flagged for a closer look

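The brighter UPF1 probe set read 169.5 on the 0 hr array of the depleted cells, apart from 89.4 to 94.7 on the other 3 depleted arrays, and it was still below the lowest control signal of 352.4. A gap of this kind appears by chance in about 1 in 20 groups. The 0 hr array is the baseline of every change in depleted cells, and the part of its higher UPF1 signal in those changes was not tested.

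The slope over time differed between depleted and control cells for 6 genes by a test of the difference itself. The difference, depleted minus control in log2 per hr, was 0.370 for RSRC2, 0.305 for ZNF75A, 0.266 for ZNF232, 0.264 for SLC19A2, 0.253 for ORC6 and -0.473 for EFNA2.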

How the results depend on the processing

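Each condition and time has 1 array, and its precision rests on the scatter about the fitted lines. No paired analysis was possible because each condition and time has 1 array, so that a replicate number is a time point. The classes use all 4 arrays and could not be formed with an array left out.

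Falling slopes in depleted cells numbered 2389, and 995 to 2252 when a depleted array was left out. Rising slopes numbered 1589, 3017 after quantile normalization and 673 with ribosomal protein centring, and 80 to 1286 when a depleted array was left out. The 5 higher slope differences became 8 under a filter at the 60th percentile, 3 with the median of probe sets, 3 without probe sets ending in _s_at or _x_at, and 20 with trend and robust eBayes. They became 0 without the time factor (701 genes at an unadjusted p under 0.05 in limma) and 0 with the depleted and control arrays alone (601), and 0 to 5 when an array was left out. The count was 0 without the depleted 0 hr array (481 unadjusted) or 4.5 hr array (1064), and without the control 0 hr array (677) or 4.5 hr array (1004), and it was 2 without the depleted 1.5 hr array and 3 without the depleted 3 hr array. The 1 lower slope difference became 2 with quantile normalization, 2 with ribosomal protein centring, 2 at the 60th percentile, 2 without _s_at and _x_at probe sets, 9 with trend and robust eBayes, 0 with the depleted and control arrays alone, and 0 to 2 when an array was left out.

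Curvature in depleted cells passed for 1 negative and 1 positive gene at the 60th percentile, 1 and 4 with the median of probe sets, 1 and 3 without _s_at and _x_at probe sets, and 1 and 1 with trend and robust eBayes. Early losers numbered 223 at a loss of 0.8. Delayed losers numbered 276 at 0.8, 74 at 1.2 and 97 with the median of probe sets. For the 835 genes lost in both cells, the median loss was smaller in depleted cells by 0.129, 0.288 and 0.084 at 1.5, 3 and 4.5 hr, and the last value was 0.219 after quantile normalization, an alternative added after the data were seen.

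Slopes of named genes kept their direction and side of the threshold in 1861 cases, were weaker in 139, stronger in 15 and changed sign in 9. Without _s_at and _x_at probe sets the slope was 0.083 for ZBED5, 0.077 for BOK, -0.20 for EIF3K and -0.008 for COL5A1. With the median of probe sets it was 0.120 for SKIL, 0.013 for TMEM165, 0.088 for E2F2, 0.119 for CNOT4 and -0.008 for COL5A1. The cause was not tested for any of these, beyond the other choice of probe sets itself. Dim genes are limited by signal, since a loss that reaches log2 4.7 has met the filter.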
